A study of Mus musculus and Homo sapiens with 22 samples.

Results

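Within the m6A sites predicted in mouse embryonic stem cells (mESCs), 804 lay in the coding sequence of short internal exons. These are exons under 200 nt that are neither the first nor the last exon of the longest coding transcript of their gene. They made up 3.16% of the 25456 sites of the mESC list and 6.73% of the 11942 sites placed in coding sequence, and they fell in 761 exons of 639 genes. For comparison, 5170 coding sites lay in internal exons of 200 nt or more and 4878 in last exons. The sites were mapped by miCLIP2, in which an antibody against m6A is crosslinked to poly(A)+ RNA by UV light and the modified base is read from the place where reverse transcription stops. They were then predicted by m6Aboost, a classifier whose score runs from 0.5 to 1 in the list. One list covers the miCLIP2 replicates of wild-type (WT) mESCs, so a site has no spread between replicates and its read depth is unknown. The intervals given for shares and rates are 95% intervals for counting error only, and sites in 1 gene share its reads.

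Site lists of mouse heart from purchased RNA, made by the same method with 1000, 300, 100 and 50 ng as input and 1 library each, served as a second tissue. RNA-seq of WT mESCs and of 1 Mettl3 knockout (KO) mESC line, 3 libraries each, gave mRNA levels, with 22746733 to 27254245 gene counts per library. Both mESC genotypes came from an earlier study and were grown with serum and LIF. The 8 mESC markers were all present (139 to 957 CPM in WT, read counts scaled to library size), and their summed level was 3730 to 3850 CPM in WT and 3250 to 3340 in KO. Of 10 feeder fibroblast markers, Postn was at 0 CPM in WT, Col1a2, Col3a1, Dcn, Lum and Acta2 were at 0.0569 CPM or less, Col1a1 at 1.15 and Thy1 at 2.66, whereas Vim (113 CPM) and Fn1 (2750 CPM) were high. The 4 fibroblast markers that passed the filter summed to 1970 to 3350 CPM in WT and to 1450 to 2370 CPM in KO. Most of the WT sum came from Fn1.

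m6A is the most common internal modification of mRNA. It is written by the METTL3-METTL14 methyltransferase, mostly at the motif DRACH (A, G or T, then A or G, then AC, then A, C or T), and read by YTH domain proteins that act on mRNA decay, splicing and translation. It is known to gather in long internal exons and around stop codons. Exon junction complexes, which the spliceosome leaves upstream of each junction, are known to keep the methyltransferase off the RNA close to them, and short internal exons are therefore mostly poor in m6A.

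Of the 10 sites with the highest scores, 9 are shown first, since they are the short-exon sites the classifier ranked best. Each sequence is 21 nt of the spliced transcript (GENCODE M21 on GRCm38), written 5′ to 3′ with the 5 nt centred on the site in capitals. Coordinates are those of the window. The window of Bid crosses a junction, and for it the site is given.
Cluh (chr11:74660425-74660445, plus strand): catgccatGGACTgtgtgcgt
Gnai2 (chr9:107616937-107616957, minus strand): accttcaaGGACTtacacttc
Bid (site at chr6:120901730, minus strand): tgtgccatGGACTctgaggtc
Nop53 (chr7:15939207-15939227, minus strand): agcaccaaGAACTtttcaggc
Arl2 (chr19:6137505-6137525, minus strand): cgcatgcaGGACTgtcagcga
Eef1d (chr15:75895883-75895903, minus strand): ccagctagAGACTtgtgtgcg
Mta1 (chr12:113120896-113120916, plus strand): ggcatcgaGAACTgttcctgt
Utp18 (chr11:93878024-93878044, minus strand): gttgcaaaGGACTgggaattt
Rcbtb1 (chr14:59221489-59221509, plus strand): aaagttacAAACTgtttacat

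The best of the 10, at a GAACT motif and with a score of 0.961, lay in exon 10 of the 18 exons of Fgfr1, a receptor tyrosine kinase for fibroblast growth factors. That exon is 146 nt long, and the site sat 28 nt from its 5′ end. The site of Cluh, an RNA-binding protein of mRNAs for mitochondrial proteins, followed with 0.941, and that of Gnai2, an inhibitory G protein subunit, with 0.934. The site of Bid, a pro-apoptotic BCL-2 family protein, had a score of 0.925 and lay in an exon of 66 nt, at position 5 of the coding sequence, so that its window holds the start codon. Of these 10 sites, 3 were also found in heart at 1000 ng, those of Cluh, Arl2 (a small GTPase) and Eef1d (a subunit of elongation factor 1). The sites of Arl2 and Eef1d were found at 300 ng too.

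A further 3 sites are shown because they were found in the heart lists of 1000, 300 and 100 ng alike. The window of Atp5b crosses a junction.
Rps24 (chr14:24493420-24493440, plus strand): agcgaaagGAACGcaagaaca
Atp5b (site at chr10:128085443, plus strand): ggaaaatcGGACTctttggag
Sdha (chr13:74327249-74327269, minus strand): gcatctaaAGACAttcgacag
All 3 genes were highly expressed in WT mESCs. Rps24, a protein of the small ribosomal subunit, stood at 1450 CPM, Atp5b, a subunit of the mitochondrial ATP synthase, at 1910 CPM, and Sdha, a subunit of succinate dehydrogenase, at 311 CPM. Their scores were 0.827, 0.721 and 0.562. The site of Rps24 is not a DRACH motif, and it was the only one of the 3 that was found at 50 ng too. Ribosomal protein genes have processed pseudogenes of similar sequence, and for the site lists the authors kept only uniquely mapping reads. Whether pseudogenes had a part in this site was not tested.

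Predicted sites were rare in short internal exons. In genes with at least 1 mESC site, short internal exons held 138751 DRACH motifs, of which 754 coincided with a site, or 5.43 per 1000 motifs (5.06 to 5.83). Among these, 3 lay in exons of another gene too and were not counted as members. Internal exons of 200 nt or more held 4913 sites at 75172 motifs, or 65.4 per 1000 (63.6 to 67.1), and coding parts of last exons 116 per 1000 (113 to 119). The rate in long internal exons was thus 12 times that in short ones (11.1 to 13). Short exons held 64.9% of the motifs in internal exons but 13.3% of the sites at them. Counted by exon, 1.43% of 49868 short internal exons with a motif carried a site, against 23.8% of 8824 long ones.

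The same held within genes. Both kinds of internal exon were present, with motifs, in 2492 genes with a coding site. The long exons had the higher rate in 1532 of them, the short exons in 228, in 1 they were equal, and in 731 neither kind had a site. Over these genes the rate ratio was 12 (10.9 to 13.3).

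The rate was nearly flat over the length of short exons and rose steeply beyond it. It was 4.42 per 1000 motifs (3.74 to 5.22) in exons of 50 to 99 nt, 4.21 (3.53 to 5.03) at 100 to 124 nt, 5.81 (5.03 to 6.72) at 125 to 149 nt and 5.38 (4.56 to 6.34) at 150 to 174 nt. The longest class under 200 nt, that of 175 nt and more, stood above the others with 8.41 per 1000 (7.22 to 9.8), which was 1.7 times the rate of all shorter exons (1.43 to 2.02). The rate then passed 25.3 at 250 to 299 nt and reached 123 at 500 to 999 nt. It was lower again in longer exons, with 106 at 1000 to 1999 nt and 68.3 (63.9 to 73) at 2000 nt or more. The limit of 200 nt fell on no step. The last 10 nt under the limit had 63 sites and 8.87 per 1000 motifs, and the first 10 nt over it, exons of 200 to 209 nt, had 59 sites and 9.99.

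**Figure D1:**
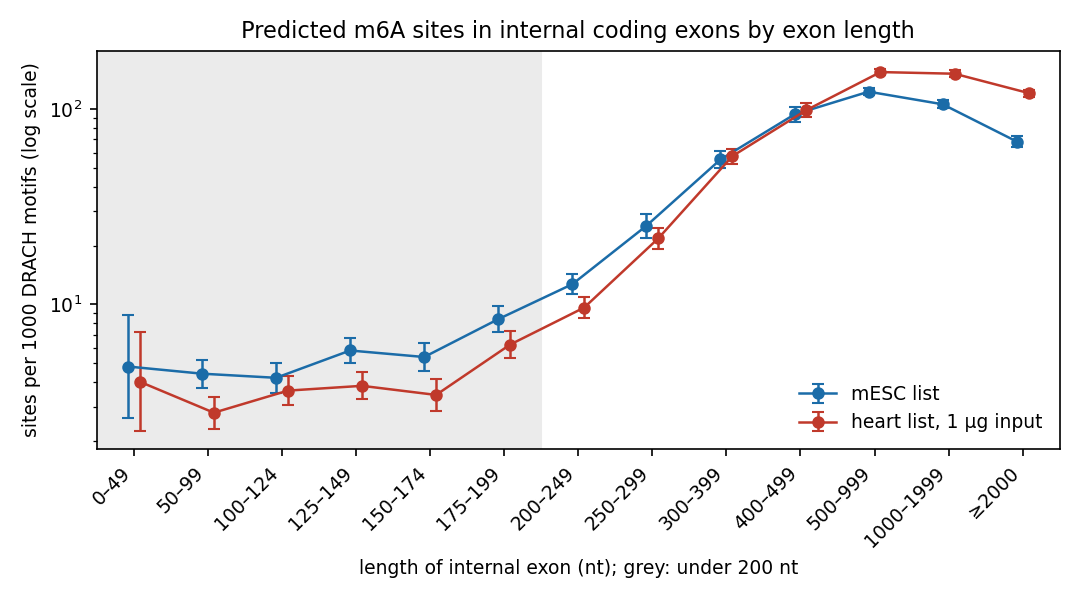
Predicted m6A sites per 1000 DRACH motifs (log scale) in coding sequence of internal exons by exon length in nt, for the mESC list and the heart list of 1 µg, each in genes with a site of that list. Points are rates and bars 95% Wilson intervals; in mESCs the 6 classes under 200 nt (grey) lie between 4.21 and 8.41, and the class of 500 to 999 nt at 123.

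Within short internal exons the rate differed little with the distance to the splice junction, except furthest from it. Members sat a median of 31 nt from the nearer exon end (quartiles 13 and 49), and the motifs of the same exons 29 nt (14 and 46). The rate was 5.06 per 1000 motifs under 25 nt from the nearer end, 5.27 at 25 to 49 nt and 5.77 at 50 to 74 nt, with intervals that overlap. It was 9.43 (7.2 to 12.3) at 75 to 99 nt, which only exons over 150 nt can offer. Motifs at 50 nt or more had 1.25 times the rate of those closer (1.06 to 1.47). This ratio did not differ from 1 beyond counting error in short exons of at least 150 nt alone (1.14, 0.907 to 1.42) or at motifs that every covering transcript places in a short internal exon (1.23, 0.983 to 1.54). Neither end was favoured, since motifs under 25 nt from the 5′ end of the exon had 5.25 sites per 1000 (4.5 to 6.12) and those under 25 nt from the 3′ end 4.8 (4.08 to 5.66).

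Long internal exons differed at the same distances. Their rate rose from 11.3 per 1000 motifs under 25 nt to 17.3, 28.6 and 39.0 in the next classes of 25 nt, and to 148 at 200 to 299 nt, and was 94 (89.9 to 98.3) at 300 nt or more. At matched distance, the rate in long exons was 2.22 times (1.78 to 2.78) that in short exons under 25 nt from a junction, 3.29 times (2.7 to 4.01) at 25 to 49 nt, 4.95 times (4.03 to 6.08) at 50 to 74 nt and 4.13 times (3.09 to 5.52) at 75 to 99 nt.

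**Figure D2:**
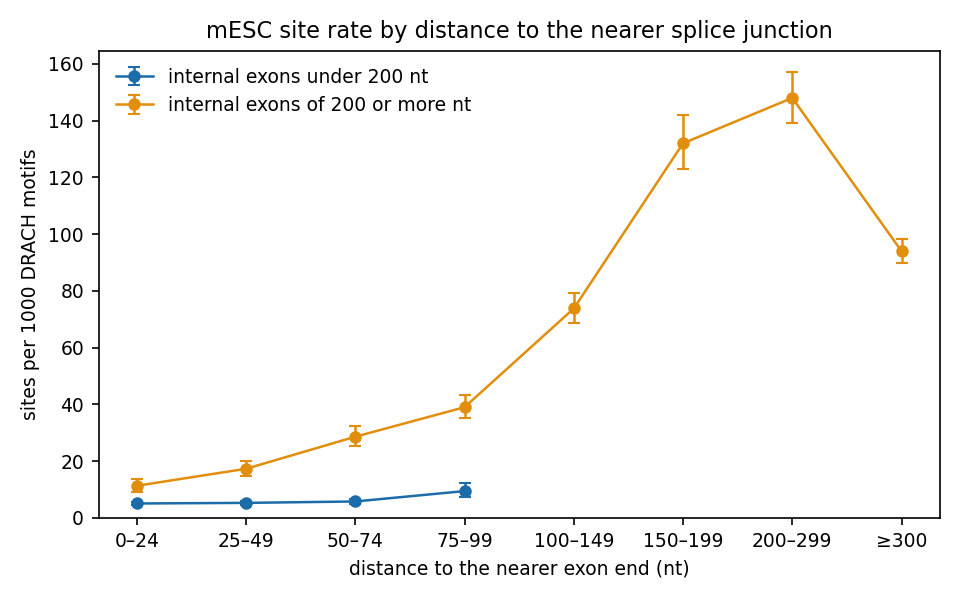
mESC sites per 1000 DRACH motifs against the distance in nt to the nearer exon end, for internal exons under 200 nt and of 200 nt or more. Points are rates and bars 95% Wilson intervals; short exons go from 5.06 to 9.43 over their 4 classes, and long exons from 11.3 to 148 and back to 94 at 300 nt or more.

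Sites in short internal exons were more common close to the stop codon. The second to last exon held 10.5 sites per 1000 motifs (8.89 to 12.4), which was 2.14 times (1.78 to 2.58) the rate of the other short internal exons. For long internal exons the same ratio was 1.26 (1.16 to 1.37). The third and the fourth to last exons had 6.53 (5.23 to 8.14) and 6.74 (5.38 to 8.44), and the second exon of the transcript, at the other end, had 7.31 (5.77 to 9.25), so the rate by exon did not climb steadily towards the end. Measured along the coding sequence, the short-exon rate was 13.6 per 1000 under 100 nt from the stop codon, 9.82 at 100 to 299 nt, 6.55 at 300 to 999 nt, 4.47 at 1000 to 2999 nt and 2.01 (1.49 to 2.71) further away. By codon position, it was 4.58, 5.59 and 6.14 for motifs whose A is the base 1, 2 and 3 of a codon, and position 3 exceeded position 1 by 1.34 times (1.09 to 1.64), close to the 1.28 times (1.19 to 1.37) in long exons.

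GGACT made up a larger part of the sites in short exons than in long ones. The strongest motif, GGACT, made up 35.3% of the members (32.1 to 38.7), 23% of the sites in long internal exons (21.9 to 24.1) and 20.6% of those in last exons (19.5 to 21.7), although it was 5.36% of the DRACH motifs in short internal exons and 5.71% in long ones. In short exons 38.3 of 1000 GGACT motifs had a site (34.2 to 42.9), followed by GAACT with 14.8 and AGACT with 13.9. TGACT came next with 6.25, then GGACA with 5.62 and GGACC with 5.43, close to the mean of all motifs. Long exons had 7.24 times (6.4 to 8.2) the short-exon rate at GGACT, but 20.5 times (15.9 to 26.5) at GGACA and 20.5 times (14 to 29.9) at AAACT. Another 53 members (6.59%) had no DRACH motif, 12 of them at GGATT and 9 at GGACG. Sequence and transcript region are inputs of the classifier, and their part in these rates was not tested.

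The scores of the members were low. Their median was 0.640 (quartiles 0.555 and 0.744), against 0.719 (0.622 and 0.803) in long internal exons and 0.712 (0.62 and 0.802) in last exons. Of the members, 24.6% (21.8 to 27.7) scored above the median of the mESC list, against 41.8% (40.4 to 43.1) of the sites in long internal exons. The gap remained at GGACT sites, with medians of 0.698 in short and 0.772 in long exons, and was wider at GAACT, with 0.643 and 0.774. The order was the other way in the lowest quintile of WT mRNA level, where the median was 0.705 for 16 members and 0.686 for long-exon sites. Among members the median rose with the distance to the junction, from 0.609 under 25 nt to 0.647, 0.657 and 0.712 in the next classes of 25 nt.

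The genes with members were highly expressed. Their median WT level was 120 CPM (quartiles 65.5 and 248), against 57.7 CPM (29.1 and 111) for the genes with sites in long internal exons and no member. When the coding genes of at least 10 CPM were split into quintiles by WT level, 0.917% of the genes in the lowest quintile and 20.2% of those in the highest had a member. The short-exon rate rose from 0.521 per 1000 motifs (0.321 to 0.847) in the lowest to 1.31, 2.28, 4.02 and 8.01 (7.28 to 8.81) in the highest quintile. In long internal exons the rate rose less, from 24.1 to 71.6 per 1000. The ratio of long to short exons fell from 46.3 (28.0 to 76.4) in the lowest quintile to 8.94 (8.05 to 9.93) in the highest. The list gives no read depth, and the part that the depth of a gene has in calling its sites was not tested.

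**Figure D3:**
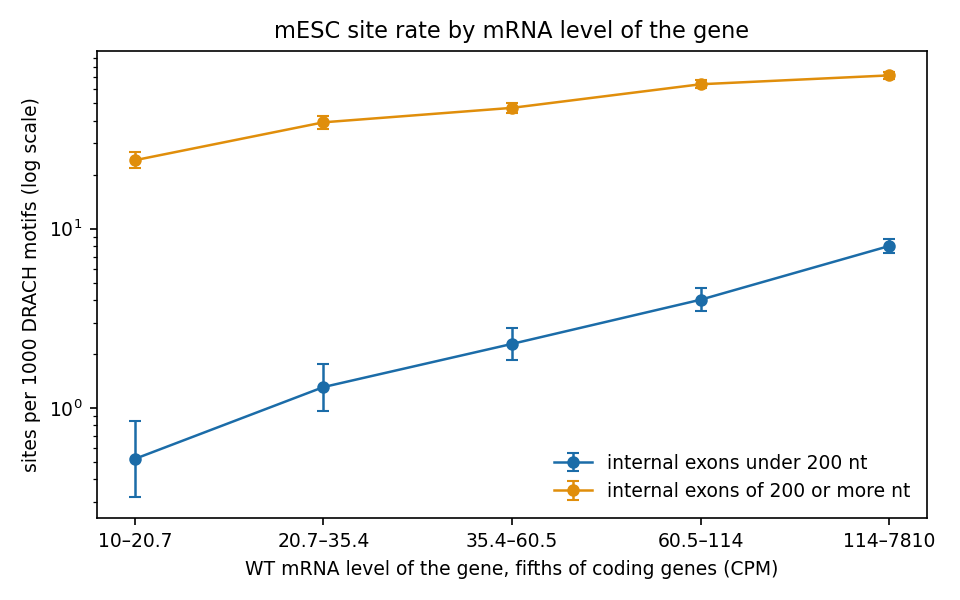
mESC sites per 1000 DRACH motifs (log scale) against the WT mRNA level of the gene in CPM, in quintiles of coding genes of at least 10 CPM with or without sites. Points are rates and bars 95% Wilson intervals; short internal exons rise from 0.521 to 8.01 and long ones from 24.1 to 71.6.

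Many members were not in a short internal exon in every annotated transcript. For 382 of them (47.5%, 44.1 to 51.0), at least 1 other transcript placed the site in a first or last exon or in an exon of 200 nt or more. Transcripts annotated as retained introns did so for 31.7% (28.6 to 35.0), protein-coding transcripts for 11.7% (9.65 to 14.1). Of all motifs in short internal exons, 31% were placed elsewhere by some transcript and 20.9% by a retained-intron transcript. The site rate was 8.17 per 1000 (7.36 to 9.07) at motifs with such a transcript and 4.2 (3.81 to 4.63) at those without. Thus the motifs that every covering transcript kept in a short internal exon were poorer still, and the ratio of long to short exons was 15.1 (13.6 to 16.8) where both kinds were the same in every transcript. Which of these transcripts mESCs make was not tested. Nor was the part that the mRNA level of the genes has in this difference.

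Members lay between shorter introns. The median of the shorter of both flanking introns was 354.5 nt for members and 643 nt for the motifs of short internal exons. The site rate was 7.06 per 1000 motifs (5.87 to 8.48) where that intron was under 100 nt and 8.15 (7.17 to 9.26) at 100 to 299 nt, but 3.17 (2.32 to 4.33) at 3000 nt or more. Rates under 300 nt were 2.45 times (1.76 to 3.41) those at 3000 nt or more. The short-exon rate also rose with the mRNA level of the gene, and the part of that level in these differences was not tested.

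Most genes held 1 member (521 genes), 85 held 2, 24 held 3 and 9 held 4 to 6. In 179 genes the members were the only exonic mESC sites, and 460 genes had others too. Aurkb, a mitotic kinase of the chromosomal passenger complex, and Sptan1, the non-erythroid alpha spectrin, held 6 each. The pair differed in crowding, since the 6 sites of Aurkb fell in 3 exons with 20 DRACH motifs in its short internal exons, and those of Sptan1 in 6 exons, 1 site each, with 147 such motifs. Actn4, an actin crosslinker, held 5. Ifrd2, Washc2 (of the WASH complex on endosomes), Racgap1 (a GTPase activator of cytokinesis), Eef2 (the translocase of translation elongation), Spag5 (a mitotic spindle protein) and Eif3d (a subunit of initiation factor 3) held 4 each, and Lonp1, the mitochondrial Lon protease, held 3. Members were 30.6% of all exonic sites of the genes that held any. In these 10 genes, which were chosen for having many, they ranged from 4 of 10 in Spag5 and 5 of 11 in Actn4 to 6 of 7 in Sptan1 and 4 of 4 in Eif3d.

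The sites of Aurkb are described because it held the most members per DRACH motif in short internal exons of these 10 genes. Its exon 6 was also 1 of 4 exons with 3 members. Not every covering transcript placed the sites of Aurkb in a short internal exon. Those that did were 2 of 5 for exon 5, 3 of 5 for exon 6 and 2 of 3 for exon 7. Exon 5 (139 nt) had a GAACT site with a score of 0.664 and a GGACT site with 0.756. Exon 6 (149 nt) had GAACT sites with 0.714 and 0.798 and an AGACT site with 0.58. Exon 7 (175 nt) had the best one.
Aurkb exon 7 (chr11:69050400-69050420, plus strand): tctgctatGAACTgatggtgg
Its score was 0.892. None of the 6 sites was found in any heart list. The sites of Ifrd2 were the opposite case, since 3 of 4 were found in heart at 1000 ng and 1 of them at 300 ng too. They lay in 3 consecutive exons of 85 to 125 nt, with scores of 0.744 to 0.838.

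Members were seldom found in heart. In genes with a heart site at 1000 ng, 139 of 557 members were in that list (25.0%, 21.5 to 28.7), against 69.1% (67.7 to 70.4) of 4563 sites in long internal exons and 75.9% (74.5 to 77.1) of 4200 in last exons. The difference between long and short exons was 44.1 points (40.1 to 47.8). A tolerance of 2 nt added no member. With 300 ng the share was lower in both kinds of exon, with 11.6% (8.27 to 16.1) of members and 31.3% (29.6 to 33.0) of long-exon sites. At 100 ng the shares were 7.55% of 53 and 17.0% of 678 sites. At 50 ng they were 15.4% (4.33 to 42.2) of 13 members and 12% (7.98 to 17.6) of 175 long-exon sites, too few to tell apart.

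Members were found in heart less often than long-exon sites of the same score class. At scores of 0.5 to 0.6, 17.1% of members and 49.3% of long-exon sites were in heart, a difference of 32.2 points (25.8 to 37.7). At 0.8 to 0.9 the shares were 38.3% and 85.0%, which is 46.7 points apart (33.8 to 58.1). At GGACT sites they were 27.1% and 73.2%. The gap was smaller at matched distance, since 50.1% (46.6 to 53.7) of 744 long-exon sites under 100 nt from a junction were in heart, a difference of 25.2 points (20 to 30.1) from the members, which all lie that close. By WT level, the share of members in heart was 6 of 12 in the lowest quintile, 40.7% of 27 in the next, then 28.4% and 21.5%, and 22.9% (18.6 to 27.8) of 319 in the highest, whereas that of long-exon sites stayed between 66.7% and 75.1%. Heart mRNA levels were not analysed here, so a site missing from heart may lie in an mRNA that is low there. The members found in the 100 ng list were those of Rps24, Atp5b, Sdha and Atp5d, another ATP synthase subunit.

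**Figure D4:**
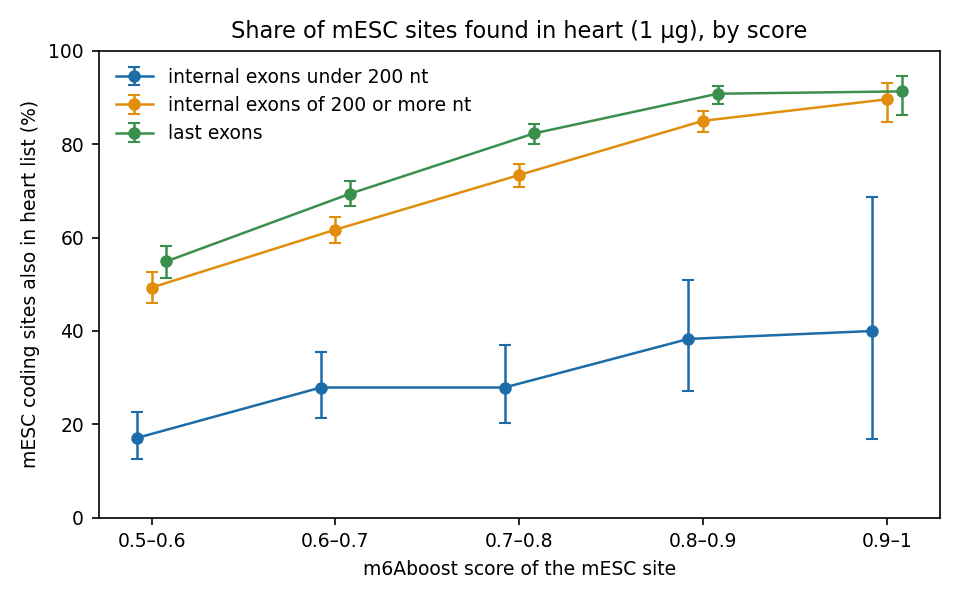
Share in percent of mESC coding sites also found in the heart list of 1 µg, by m6Aboost score of the mESC site, in genes with a heart site. Points are shares and bars 95% Wilson intervals; internal exons under 200 nt go from 17.1% to 40.0% (of only 10 sites), long internal exons from 49.3% to 89.6% and last exons from 54.9% to 91.3%.

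Of the fixed gene lists, the one of the exon junction complex and nonsense-mediated decay had members in 3 of its 16 genes with an mESC site. These were Eif4a3, the RNA helicase at the core of the exon junction complex (score 0.57), Acin1, one of its peripheral proteins (0.656), and Upf3b, which links it to decay (0.762). Of 39 chromatin regulators with an mESC site 5 had members. Those 5 were Ep400 (0.823), Chd2 (0.67), Chd7 (0.643), Chd1 (0.57) and Ezh2, the methyltransferase of Polycomb repressive complex 2 (0.527). None of these 8 sites was found in heart. No member lay in the 19 genes of the m6A machinery or in the 15 pluripotency genes that had an mESC site. Of all 6520 tested genes with an mESC site 9.8% had a member.

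Finally, the mRNA levels of the genes with members were compared between WT and Mettl3 KO mESCs. Nothing in the labels says that the RNA-seq libraries came from separate cultures, so p-values measure the spread between these libraries, and with 1 KO line other differences between the lines cannot be told apart from the knockout. Genes of chromosomes Y and 8 stood apart between the lines, and their part in the results was not tested beyond leaving out chromosome 8. The 7 genes of chromosome Y that passed the filter had 71 to 189 counts per WT library and 6037 to 7066 per KO library, and the genes of chromosome 8 were lower in KO, with a median log2 fold change of -0.44 over 829 genes. In bulk RNA, fewer cells of a type and less RNA per cell cannot be told apart either. Mettl3 itself stood at 26.4, 26.6 and 28.9 CPM in WT and at 18.4, 22.6 and 16.9 in KO. All KO libraries were lower, by a log2 fold change of -0.50 ± 0.14 (SE), but the change missed the threshold of an adjusted p of 0.01 (edgeR, adjusted p = 0.0134). It passed in 4 of 14 settings, among them the main fit at a threshold of 0.05. It also passed in the fit with the replicate block, which pairs WT and KO libraries by number (edgeR adjusted p = 0.00281), and in DESeq2 (adjusted p = 0.00663). The 14 settings include the main fit and that fit at 0.05, so a gene called in the main fit passes both by construction. Counts over the whole gene cannot show the deleted part.

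All 639 genes with members passed the filter on low counts, and 223 of them (34.9%) changed (edgeR's quasi-likelihood test, adjusted p up to 0.01), beside 29.7% of the 15731 genes tested. They were split unevenly. 186 genes fell in KO (29.1%, beside 12.6% of all genes tested) and 37 rose (5.79%, beside 17.1%). Their median log2 fold change was -0.27, that of all genes tested -0.02. Scaling by library size alone gave 120 lower and 47 higher (26.1% changed, beside 26.3% of all genes tested), with medians of -0.16 and 0.08. Of the 48 genes with members on chromosome 8, 34 fell (70.8%, beside 34.6% of the 829 genes tested there), none rose, and their median log2 fold change was -0.70. Without them 189 of 591 genes with members changed (32.0%, beside 29.0% of all genes tested elsewhere), 152 lower and 37 higher, with a median of -0.23 beside 0.00 over all genes tested elsewhere. The level of the gene moved with the direction too. In the highest quintile of WT level, 33.9% of 330 genes with members and 27.0% of 1306 other genes fell, and their median log2 fold changes were -0.34 and -0.26. In the fourth quintile 29.2% of 168 genes with members and 17.9% of 1468 others fell, with medians of -0.22 and -0.09. The shares were 19.8% of 81 and 15.4% of 1555 in the third, and 16.7% of 42 and 12.8% of 1594 in the second. In the lowest quintile 2 of 15 genes with members fell and 3 rose. The count also depended on single libraries, and so did that over all genes. It was 139 (21.8%, beside 19.1% of all genes tested) without WT replicate 1 and 111 (17.4%, beside 17.1%) without KO replicate 1. Without KO replicate 3 it was 126 (19.7%, beside 19.3%). With the replicate block it was 325 (50.9%, beside 43.5%), 272 lower and 53 higher.

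Among the genes with the most members, Sptan1, Racgap1, Eif3d and Spag5 fell and Ifrd2 rose. Sptan1 stood at 337, 270 and 390 CPM in WT and 224, 212 and 218 in KO, a log2 fold change of -0.61 ± 0.14 (SE, edgeR adjusted p = 0.00486). The groups did not overlap. Ifrd2 stood at 39.2, 41.4 and 53.2 CPM in WT and 70.6, 66.9 and 69.3 in KO (0.63 ± 0.13, edgeR adjusted p = 0.00278). Over 14 settings, Racgap1 passed in 12, Sptan1 and Ifrd2 in 10, Eif3d in 9 and Spag5 in 7. Aurkb (-0.15), Actn4 (-0.09), Eef2 (-0.11) and Lonp1 (-0.05) did not pass in any of them, and Washc2 (0.36, edgeR adjusted p = 0.0189) passed in 5, among them the replicate block (edgeR adjusted p = 0.00465).

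The largest rise was that of Faap100, a protein of the Fanconi anaemia core complex, with 10.2, 9.79 and 9.73 CPM in WT and 38.3, 36.2 and 37.8 in KO (log2 fold change 1.92 ± 0.12, SE). Next came Sh3bp4 (1.36), a protein of endocytosis, Gne (1.29), the first enzyme of sialic acid synthesis, Exo1 (1.12), an exonuclease of mismatch repair, and Map3k4 (1.05), a kinase of stress signalling. Each held 1 member, with scores of 0.586 (Faap100) to 0.853 (Gne), and those of Faap100, Gne and Map3k4 were also in heart at 1000 ng. The largest fall was that of Ndrg2, with 65.2, 61.9 and 64.1 CPM in WT and 10.5, 9.32 and 10.9 in KO (-2.64 ± 0.12, SE). Vim, an intermediate filament protein, followed with -2.52, then Upp1, uridine phosphorylase, with -2.13, Morc1, a silencer of transposons in germ cells, with -1.94, and Pfkp, a phosphofructokinase of glycolysis, with -1.80. Pfkp was the most abundant of them, with 1447, 1682 and 1210 CPM in WT and 371, 431 and 439 in KO. All 10 genes passed in all 14 settings. The rule for naming them required a call in the main fit and WT and KO libraries that did not overlap. Both members of Morc1 lay 9 nt apart in its second to last exon, with scores of 0.744 and 0.571. Vim is also among the fibroblast markers, whose summed level is given above, and their part in its fall was not tested.

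**Figure D5:**
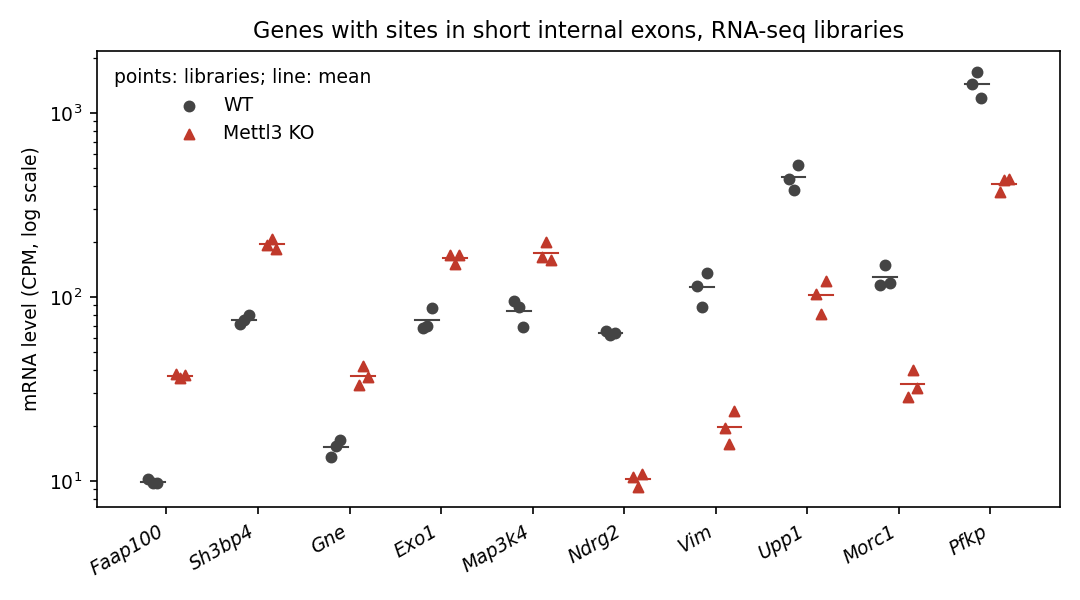
mRNA level in CPM (log scale) of the 5 genes with members that rose most and the 5 that fell most in Mettl3 KO mESCs. Each point is 1 RNA-seq library (3 WT, 3 KO) and each line the mean; Faap100 goes from about 9.91 to 37.4 CPM and Pfkp from 1446 to 414.

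Among the genes of the fixed lists that held a member, Ezh2 fell, with 256, 217 and 260 CPM in WT and 148, 120 and 141 in KO (-0.84 ± 0.12, edgeR adjusted p = 0.000415), and Chd7 rose, with 62.5, 53.2 and 63.1 CPM in WT and 112, 135 and 110 in KO (1.00 ± 0.12, edgeR adjusted p = 0.000153). Both passed in all 14 settings. Upf3b fell (-0.40 ± 0.10, edgeR adjusted p = 0.00819), a call that held in 6 settings. Eif4a3, Acin1, Ep400 and Chd2 did not pass in any setting, with log2 fold changes of -0.28, 0.03, -0.17 and 0.09, and Chd1 (0.39, edgeR adjusted p = 0.0104) passed in 6, among them the replicate block (edgeR adjusted p = 0.00262). Of the whole lists, 5 of 23 genes of the exon junction complex and decay fell and 1 rose, and 5 of 42 chromatin regulators fell and 6 rose. Of the lists without members, 9 of 22 tested genes of the m6A machinery rose and 2 fell, and 2 of 16 pluripotency genes rose and 4 fell. The medians of the log2 fold change were -0.13, 0.11, 0.25 and -0.01 in this order, beside -0.02 over all genes tested, of which 17.1% rose and 12.6% fell.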

How the data were processed

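The values were used as deposited. The score of each mESC and HEK293T site is the m6Aboost prediction (a fraction), which the authors computed for peaks at an A that PureCLIP called after mapping with STAR and removal of duplicates by UMI. The score the authors deposited with the heart sites has no stated scale and was not used. The sample titles give the smaller heart inputs in µg, the study in ng. Counts per gene, deposited as whole numbers, are the authors' output of STAR and HTSeq, and lines that name no gene (36.7 to 42.7% of all counts) were left out.

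Sites in exons of exactly 1 gene on their strand (24880 of 25456; 407 in several and 169 in none were left out) were placed in the longest coding transcript of that gene (GENCODE M21 on GRCm38 for mouse, 44 on GRCh38 for human; the authors used other releases). DRACH motifs were read from the spliced coding sequence, on the transcript strand only. Shares have Wilson intervals, differences of shares Newcombe intervals and rate ratios log intervals, all at 95%. Levels were CPM with TMM factors. Genes were tested with edgeR 4.0.16 in R 4.3.3 (filterByExpr, TMM, glmQLFit, glmQLFTest) with Benjamini-Hochberg adjustment over 15731 genes, and DESeq2 1.42.0 was an alternative. The fit was tested on simulated data. The main fit did not pair libraries. Replicate numbers of WT and KO were taken as pairs only in the fit with the replicate block, an alternative. Deviations from the group means correlated by 0.179, 0.515 and 0.374 between libraries of the same number. Python 3.11.15, NumPy 2.4.6, pandas 2.3.3, SciPy 1.17.1 and Matplotlib 3.10.9 were used.

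Named sites were the 10 highest by score and those in the heart lists of 1000, 300 and 100 ng. Named genes were the 10 with the most members (ties by summed score), genes of the fixed lists with a member, Mettl3, and the 5 highest and 5 lowest log2 fold changes among genes with members that were called, had a mean of at least 100 counts and no overlap of groups. Atp5d, Rpl12 and Psmd11 and the motifs singled out were named after their values were seen. The members, the lists and the tests were chosen with earlier results of these data known. 6 alternatives were added after seeing the data.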

Additional observations from a re-analysis of the deposited data

How the results depend on the processing

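The ratio of long to short internal exons stayed above 1 beyond counting error in all 14 alternatives, from 7.24 at GGACT alone to 46.3 in the lowest quintile of WT level. It was 8.94 at a limit of 150 nt, 13.1 at 300 nt, 22.4 in heart and 9.12 in HEK293T cells. The ratio of 1.25 for motifs at 50 nt or more from a junction kept its direction in all 7 alternatives, but its interval included 1 with a limit of 25 nt (1.13), in exons of at least 150 nt (1.14), at motifs in short internal exons in every transcript (1.23) and in heart (1.12), where fewer sites were counted in the last 3. The share of members in heart (25.0%) was 29.2% in genes with at least 5 heart sites, 17.3% over all genes, 11.6% in the list of 300 ng and 32.1% above the median score. The median score of 0.640 was 0.698 at GGACT alone. The share placed elsewhere by another transcript (47.5%) was 11.7% with protein-coding and 4.1% with basic transcripts only, which are fewer.

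In the main fit 223 of 639 genes with members changed, beside 29.7% of all genes tested. When a member had to lie in a short internal exon in every transcript, 132 of 362 did, beside the same 29.7%. Leaving out 1 library gave 111 (17.4%, beside 17.1% of all genes tested) to 241 (37.7%, beside 33.1%). The fit with the replicate block, which pairs libraries by number, gave 325, the 223 included, and over all genes 6837 in place of 4669. DESeq2 gave 255 (39.9%, beside 28.6% of all genes tested) and library size alone 167 (26.1%, beside 26.3%). Genes off chromosome 8 gave 189 (32.0%, beside 29.0%), and an adjusted p of 0.05 gave 322 (50.4%, beside 46.6%). The lists give no depth or replicates, which limits every rate to counting error.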

Other observations

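Short internal exons were poor in sites in the other lists as well. The heart list of 1000 ng placed 708 coding sites in them and 8759 in long internal exons. At DRACH motifs of genes with a heart site, 649 of 170171 in short exons and 8318 of 97273 in long ones had a site, or 3.81 (3.53 to 4.12) and 85.5 (83.8 to 87.3) per 1000. Of the heart sites in short internal exons of genes with an mESC site, 31.3% (27.2 to 35.8) were in the mESC list, against 51.3% (50.0 to 52.5) of those in long ones. In HEK293T cells, a human embryonic kidney line, the rates were 8.31 (7.82 to 8.83) and 75.7 (73.8 to 77.7). Short exons made up 13.5% of internal coding sites in the mESC list and 7.48%, 6.92%, 7.69% and 9.43% in the heart lists of 1000, 300, 100 and 50 ng, the last with 5 short-exon sites.

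Besides those of Aurkb and Spag5, 2 exons carried 3 members each. In the second to last exon of Psmd11, a subunit of the proteasome lid, the sites scored 0.666, 0.722 and 0.761, and the best of them, a GGACT site, was also found in heart at 1000 and 300 ng. In exon 3 of Rpl12, a protein of the large ribosomal subunit at 1800 CPM in WT, they scored 0.507, 0.554 and 0.65 and lay within 14 nt of each other, and the first was in the same heart lists. The most abundant gene with members named here besides Eef2 was Fn1, fibronectin, at 2750 CPM, with 3 members in 3 exons of 138 to 180 nt and scores of 0.524, 0.58 and 0.873. None of these was in heart.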
